A study of Homo sapiens with 5 samples.

Results

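The genes described here encode the heterogeneous nuclear ribonucleoproteins (hnRNPs) and the serine and arginine-rich (SR) splicing factors. They were taken from the deposited poly(A) site table by name, as every gene whose symbol starts with HNRNP or SRSF, plus SYNCRIP, which encodes hnRNP Q. This gave 34 genes with 161 poly(A) sites, of 12693 genes and 29996 sites in the table. Of the 34, 21 are named HNRNP and 12 are named SRSF. The cells were human embryonic stem cells of the line H9, grown in mTeSR medium, and the 3' ends of poly(A)+ RNA were sequenced in 5 libraries. The groups compared were control, with 2 libraries from clones that per the study received the empty CRISPR-Cas9 vector, and CFIm25 KO, with 3 libraries from clones edited in NUDT21, the gene of CFIm25. Each library came from 1 clone, and per the study the edited clones keep a little CFIm25 with a short deletion at its N-terminus, so that CFIm25 KO is used as a name. The p-values measure the spread between these clones, and differences between clones cannot be told apart from the edit.

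SR proteins and hnRNPs bind pre-mRNA while it is being transcribed. SR proteins carry a domain of arginine and serine repeats and mostly promote the use of nearby splice sites, whereas many hnRNPs repress them or bind the 3' UTR, where they act on the stability, transport and 3' end of the mRNA. Many of these genes regulate their own splicing through exons that send the transcript to nonsense-mediated decay, and many have several poly(A) sites. CFIm25 is a subunit of cleavage factor I, which binds upstream of poly(A) sites and influences which of them is used (alternative polyadenylation, APA).

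The libraries held between 5203908 and 7783102 reads in the table, and the members took between 1.21% and 1.38% of the reads assigned to genes. NUDT21 itself was at 223 and 222 CPM (reads scaled to the library's total) in the controls and at 131, 129 and 133 CPM in CFIm25 KO (log2 difference -0.77, SE 0.112, edgeR adjusted p = 0.0324). Reads at the 3' end come from beyond the edited stretch, so they test neither the editing nor the loss of protein. All 9 markers of undifferentiated stem cells had a site, with a summed level between 3582 and 5382 CPM. The lowest sum was that of control 2, in which LIN28A stood at 748 CPM against 1986 to 2759 CPM in the other libraries. Of 6 neural markers, NES, ZIC2 and TUBB3 had a site and PAX6, SOX1 and DCX had none. Their summed level was 181 and 153 CPM in control and 217, 248 and 219 CPM in CFIm25 KO. Only NES was above both controls in every clone. ZIC2 was at 36.0 CPM in CFIm25 KO 3, against 49.2 and 34.2 CPM in control. TUBB3 was at 46.9 CPM in CFIm25 KO 1, below the controls at 54.8 and 51.0 CPM. The part of the neural sum in the member results was not tested. Fibroblast markers had a site in 4 of 8 genes, trophoblast markers in 2 of 5, mesoderm markers in 2 of 4 and endoderm markers in 0 of 5. The fibroblast sum was 250 and 261 CPM in control and 219, 178 and 368 CPM in CFIm25 KO. The mesoderm sum was 35.2 and 35.4 CPM in control and 20.4, 14.8 and 41.6 CPM in CFIm25 KO, and the trophoblast sum 39.2 and 38.6 CPM against 36.5, 23.8 and 60.1 CPM. CFIm25 KO 3 was the highest library in all 3 sums. In that library the fibroblast sum came mostly from THY1 (185 CPM) and VIM (144 CPM), and the trophoblast sum from TFAP2C (59.1 CPM). KRT7, the other trophoblast marker with a site, went the other way. It was lowest in CFIm25 KO 3, at 1.01 CPM against 2.13 to 4.10 CPM in the other libraries. The part of these sums in the member results was not tested.

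The members had more poly(A) sites than most genes. The median member had 4 sites, from 1 to 16, against a median of 1 over all genes, and 28 of the 34 (82.4%) had at least 2 sites annotated as 3' UTR, against 34.2% of all genes. The table keeps only sites of at least 5 RPM (counts divided by a library total) in sum, so an abundant gene can show more weak sites. The part of abundance in these site counts was not tested. HNRNPA3, an hnRNP of the A/B family, had the most, with 16 sites, and HNRNPA2B1 had 12. The annotation placed 128 of the 161 sites in a 3' UTR, 22 in an exon and 11 in an intron. An intronic site was found in 7 members (20.6%, against 19.1% of all genes) and an exonic site in 14 (41.2%, against 17.9%). The 3' UTR held the strongest site in 32 members. The exceptions were SRSF10, in which an intronic site narrowly led over the 5 libraries, and HNRNPCP2, a pseudogene with 1 site, annotated as exon.

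The first comparison asked whether the amount of poly(A)+ RNA of these genes differed in CFIm25 KO. All 34 members passed the count filter and none passed the threshold (edgeR, adjusted p under 0.05), against 7 of 11841 genes tested (0.0591%). At an unadjusted p under 0.05 there was 1 member, against 7.13% of all genes. The member differences were small: 15 were above 0 and 19 below, with a median of -0.03 on the log2 scale (0.01 over all genes). In 9 members the CFIm25 KO libraries all lay on 1 side of both controls (26.5%, against 24.5% of all genes). In bulk samples, a different share of cells and a different amount of RNA per cell cannot be told apart.

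**Figure D1:**
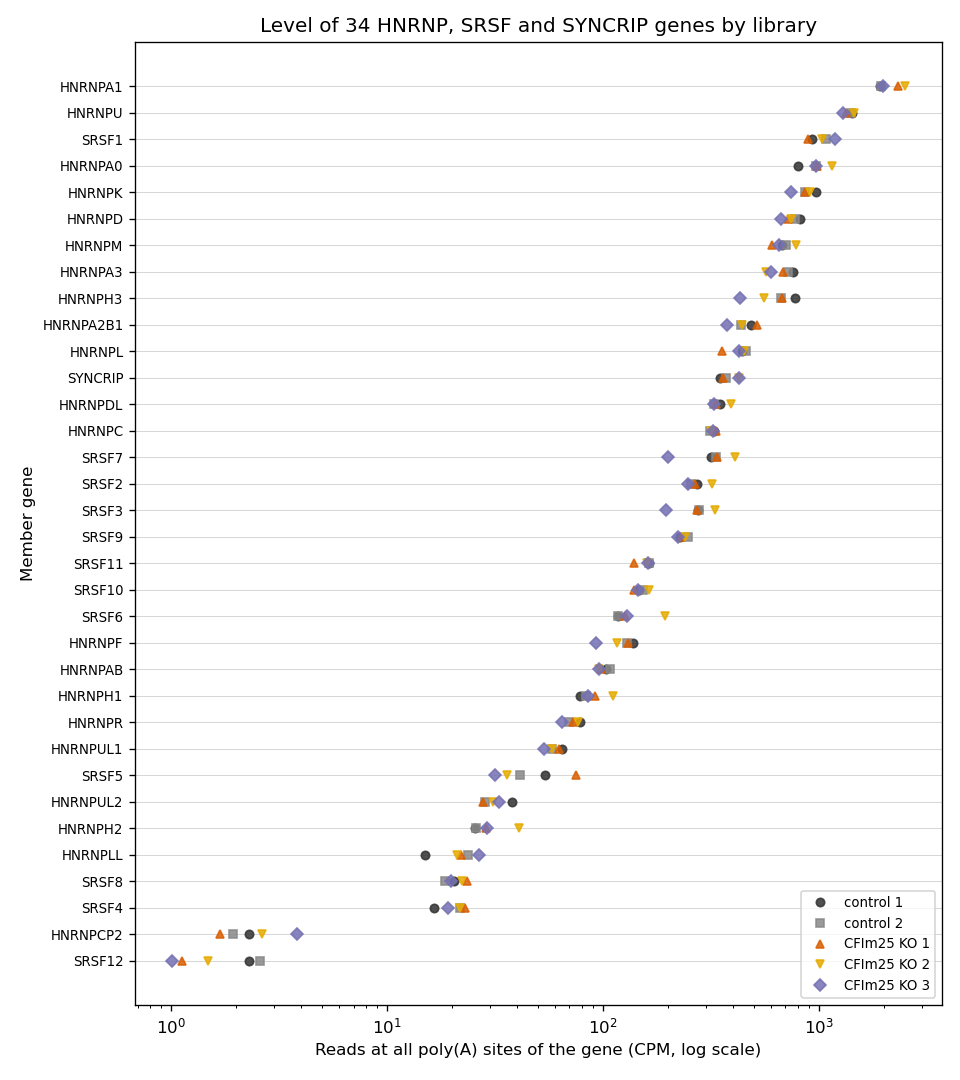
Level of each of the 34 member genes in each library, as reads at all its poly(A) sites in CPM on a log scale, with 1 point per library (2 control, 3 CFIm25 KO) and genes ordered by their mean. The points of a gene mostly lie close together, with HNRNPA1 highest at 1923 to 2522 CPM and SRSF7 spread from 200 to 410 CPM.

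The most abundant member was HNRNPA1, which encodes a repressor that binds exonic and intronic silencers. It was at 1923 and 1949 CPM in control and 2328, 2522 and 1991 CPM in CFIm25 KO. All CFIm25 KO libraries lay above both controls, but CFIm25 KO 3 by little, and the difference of 0.24 on the log2 scale (SE 0.122) gave an edgeR adjusted p = 0.747. RefSeq names 75 pseudogenes after HNRNPA1 and 17 after HNRNPA3, and each read was placed once, so the levels of both genes are uncertain. HNRNPU, also known as scaffold attachment factor A, followed at 1420 and 1418 CPM in control and 1337, 1455 and 1296 CPM in CFIm25 KO, and the groups overlapped. SRSF1, a founding member of the SR family, ranged from 929 to 1086 CPM in control and from 893 to 1187 CPM in CFIm25 KO.

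HNRNPA3 was the member with the smallest p. It was at 759 and 725 CPM in control and at 683, 570 and 604 CPM in CFIm25 KO, lower in all 3 clones, with a difference of -0.26 (SE 0.116, edgeR unadjusted p = 0.0429, adjusted p = 0.675). HNRNPA0, which binds AU-rich elements, was at 804 and 977 CPM in control and at 982, 1155 and 971 CPM in CFIm25 KO. CFIm25 KO 3 lay below control 2, so that the groups overlapped (difference 0.22, SE 0.128, edgeR adjusted p = 0.797). HNRNPD, or AUF1, which directs AU-rich mRNAs to decay, was at 819 and 780.5 CPM in control and at 721, 748 and 670 CPM in CFIm25 KO, with no overlap (difference -0.17, SE 0.109, edgeR adjusted p = 0.824). HNRNPK, which binds C-rich sequences, was at 976 and 866 CPM and at 863, 912 and 746 CPM, with overlap (difference -0.13, edgeR adjusted p = 0.881).

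The H and F proteins bind runs of G, and the members of this subfamily did not share 1 direction. HNRNPH1 was at 78 and 83.3 CPM in control and 91.5, 112 and 85.4 CPM in CFIm25 KO (difference 0.26, SE 0.146). HNRNPH2 was at 25.6 and 25.8 CPM in control and 28.7, 41 and 28.9 CPM in CFIm25 KO (difference 0.35, SE 0.196). In both, every CFIm25 KO library was above the controls and CFIm25 KO 2 was highest. HNRNPH3 was at 777 and 668 CPM in control and 673, 559 and 434 CPM in CFIm25 KO (difference -0.38, SE 0.170), and HNRNPF had a difference of -0.24 (SE 0.148). The edgeR adjusted p-values of these 4 genes lay between 0.696 and 0.809. The site of HNRNPH2 also lies in the span of the readthrough gene RPL36A-HNRNPH2.

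HNRNPR and HNRNPCP2 are given with the exonic sites, and the remaining 9 HNRNP genes were HNRNPA2B1, HNRNPAB, HNRNPC, HNRNPDL, HNRNPL, HNRNPLL, HNRNPM, HNRNPUL1 and HNRNPUL2. Their differences lay between -0.13 and 0.26, with edgeR adjusted p-values between 0.864 and 0.991. HNRNPM, which binds GU-rich sequences, was at 674.5 and 705 CPM in control and 610, 783 and 653 CPM in CFIm25 KO. HNRNPL, which binds CA repeats, was at 443 and 459 CPM in control and 357, 449 and 428 CPM in CFIm25 KO. HNRNPC, which binds runs of U, varied little, at 327 and 314 CPM in control and 336, 318 and 325 CPM in CFIm25 KO.

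Among the SR genes, SRSF6 was at 118 CPM in both controls and at 126, 194 and 130 CPM in CFIm25 KO (difference 0.35, SE 0.187, edgeR adjusted p = 0.776). CFIm25 KO 2 alone stood well above the rest. SRSF12 was near the lower limit of the table, at 2.3 and 2.6 CPM in control and 1.1, 1.5 and 1.0 CPM in CFIm25 KO (difference -0.99, SE 0.519, edgeR adjusted p = 0.752), so that its estimate rests on few reads. The other 10 SRSF genes had differences between -0.09 and 0.16.

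The spread among the CFIm25 KO clones was wider than the difference between groups for several SR genes. SRSF7, which acts in splicing, mRNA export and the choice of poly(A) site, was at 317 and 333 CPM in control and at 337, 410 and 200 CPM in CFIm25 KO, a range of 1.04 on the log2 scale over the clones. SRSF3, the smallest SR protein, was at 277 and 278 CPM in control and at 272, 330 and 195 CPM in CFIm25 KO. SRSF5 was at 53.8 and 41.2 CPM in control and at 75, 36.1 and 31.8 CPM in CFIm25 KO, the widest range of all members (1.23). CFIm25 KO 3 was the lowest clone in 21 of 34 members (61.8%), against 37% of all genes tested, and lay below the mean of the other 2 clones in 27 members (79.4%, against 49.8%). These counts were made after the values were seen and carry no test. With CFIm25 KO 3 left out, the difference of SRSF7 turned from -0.04 to 0.20 (edgeR adjusted p = 0.504), no member passed the threshold, and the count over all genes was 123 in place of 7.

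**Figure D2:**
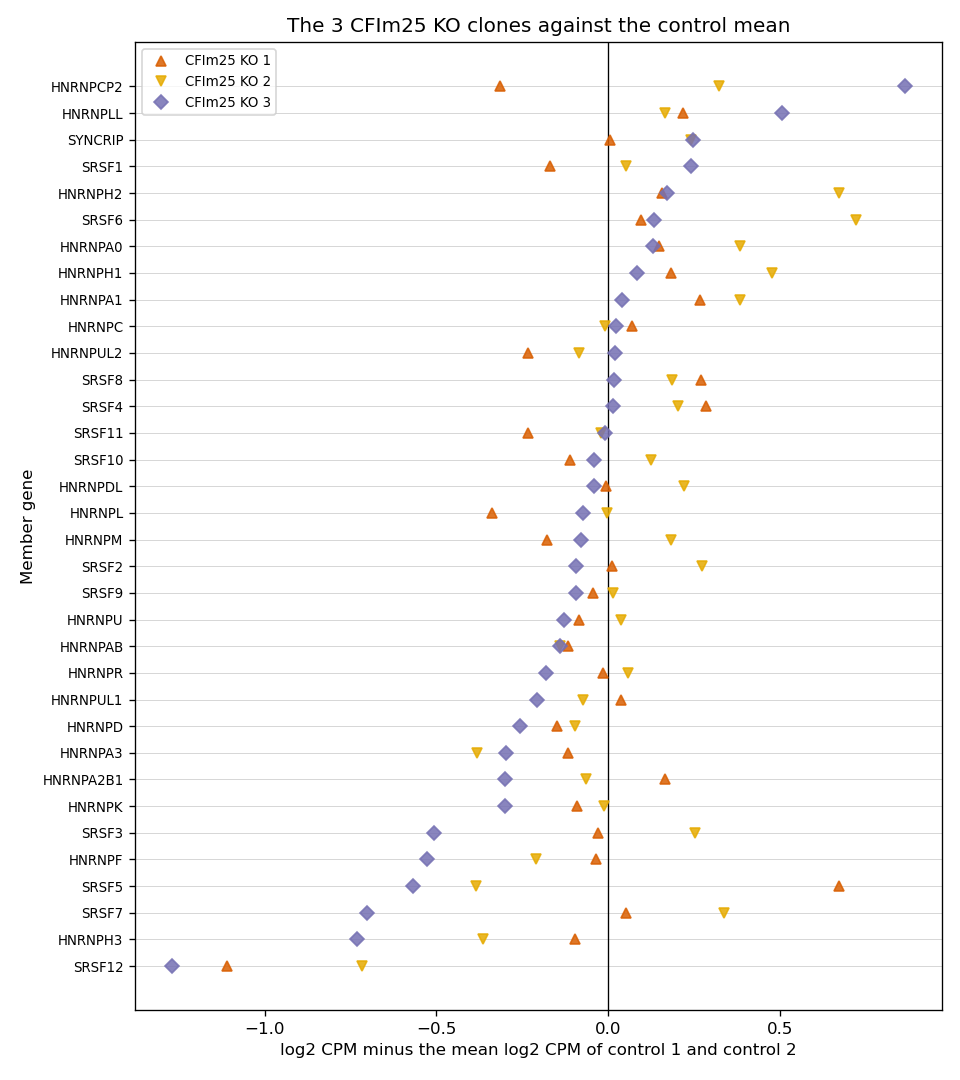
Each of the 3 CFIm25 KO clones as log2 CPM minus the mean log2 CPM of the 2 controls (x axis, log2 units), 1 row per member and ordered by CFIm25 KO 3. Points of a gene fall on both sides of 0 in many members, and CFIm25 KO 3 lies left of the other clones in 21 of 34.

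The second comparison took the poly(A) sites one by one. Of the 161 member sites, 143 were tested and none passed the threshold, against 25 of 24722 sites (0.101%). An unadjusted p under 0.05 was found at 16 member sites (11.2%, against 8.11% of all sites), 5 higher and 11 lower in CFIm25 KO. Over all sites the split was 1015 higher and 991 lower. The groups did not overlap at 51 of the 143 (35.7%, against 25.9%).

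The smallest p was at a 3' UTR site of HNRNPD (chromosome 4, position 82353984, GRCh38, minus strand), which lies 152 bases upstream of the strongest site of the gene. It was at 142 and 127 CPM in control and at 83.8, 82.7 and 78.3 CPM in CFIm25 KO, a difference of -0.72 (SE 0.134, edgeR adjusted p = 0.0753). The 3 clones lay close together and well below both controls. It passed with CFIm25 KO 3 left out (edgeR adjusted p = 0.0166) and in DESeq2 (adjusted p = 0.00443). Over the fits that left out 1 library, its edgeR adjusted p ran from 0.0166 to 1. The strongest site of HNRNPA3 (chromosome 2, position 177219775) was at 331 and 294 CPM in control and at 251, 181 and 216 CPM in CFIm25 KO (difference -0.53, SE 0.146, edgeR adjusted p = 0.311).

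At HNRNPU, 4 weaker 3' UTR sites were lower in every CFIm25 KO library than in both controls, and the 2 with an unadjusted p under 0.05 are given here. The site at position 244854412 of chromosome 1 was at 62.3 and 77.9 CPM in control and 47.5, 47.2 and 50 CPM in CFIm25 KO (difference -0.54, edgeR adjusted p = 0.334). The far site at position 244840641, which lies 9656 bases past the end of HNRNPU in RefSeq and inside the span of COX20, was at 153 and 140 CPM in control and 119, 106 and 100 CPM in CFIm25 KO (difference -0.43, edgeR adjusted p = 0.399). SRSF3 had such a site too (chromosome 6, position 36602290), at 41.8 and 36.9 CPM in control and 23.8, 31.7 and 21.3 CPM in CFIm25 KO (difference -0.62, edgeR adjusted p = 0.382).

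The third comparison asked how the 2 strongest 3' UTR sites of a gene shared its reads. Proximal reads were divided by distal reads in each group, and the shift is log2 of this ratio for CFIm25 KO less that for control. A positive shift thus means more use of the proximal site relative to the distal site of the pair. It means a shorter 3' UTR only where both sites lie in the same last exon, which was not checked. Of 23 members with such a pair, 1 passed the threshold, against 16 of 3287 genes tested (0.487%). An unadjusted p under 0.05 was found in 11 members, against 12.6% of all genes tested, and the proximal shares of the groups did not overlap in 16 (69.6%, against 30.6%). The member pairs held more reads, a median of 5707 over the 5 libraries against 711 for all pairs tested, and the part of this depth in those shares was not tested. The shift was below 0 in 15 members and above 0 in 8. The median was -0.20, against -0.09 over all genes tested, and -0.42 over the 9 SRSF pairs.

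HNRNPA0 was the member that passed. Its proximal site (chromosome 5, position 137752617, minus strand) lies 2181 bases upstream of the distal site at position 137750436, both in the 3' UTR of this gene. The proximal site took 88.9% and 91% of the pair in control and 93.6%, 95.1% and 93% in CFIm25 KO. Every clone was above both controls, and the shift was 0.79 (SE 0.181, 95% interval 0.42 to 1.16, edgeR adjusted p = 0.0399). The distal site itself was at 71.9 and 73.5 CPM in control and 51.5, 46.8 and 56 CPM in CFIm25 KO (difference -0.50, SE 0.149, edgeR adjusted p = 0.363). Another 3' UTR site downstream of the proximal one, at position 137751572, held 1754 reads, against 1792 at the distal site used. It was at 53.5 and 50.3 CPM in control and 57.2, 64.5 and 58.9 CPM in CFIm25 KO. Its difference was 0.21 (edgeR adjusted p = 0.775). Its share of the gene's reads was 7.39% and 5.68% in control and 6.44%, 6.14% and 6.75% in CFIm25 KO, with overlap. The shift with that site in the pair was not tested. The call was lost without control 1 (shift 0.62, edgeR adjusted p = 0.412), without CFIm25 KO 1 (0.83, adjusted p = 0.0675) and without CFIm25 KO 2 (0.63, adjusted p = 0.305). It was also lost in diffSpliceDGE, a different model and test that has no term for the library (0.78, adjusted p = 0.154). It held without control 2 (0.95, adjusted p = 0.0329) and without CFIm25 KO 3 (0.91, adjusted p = 0.00244).

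**Figure D3:**
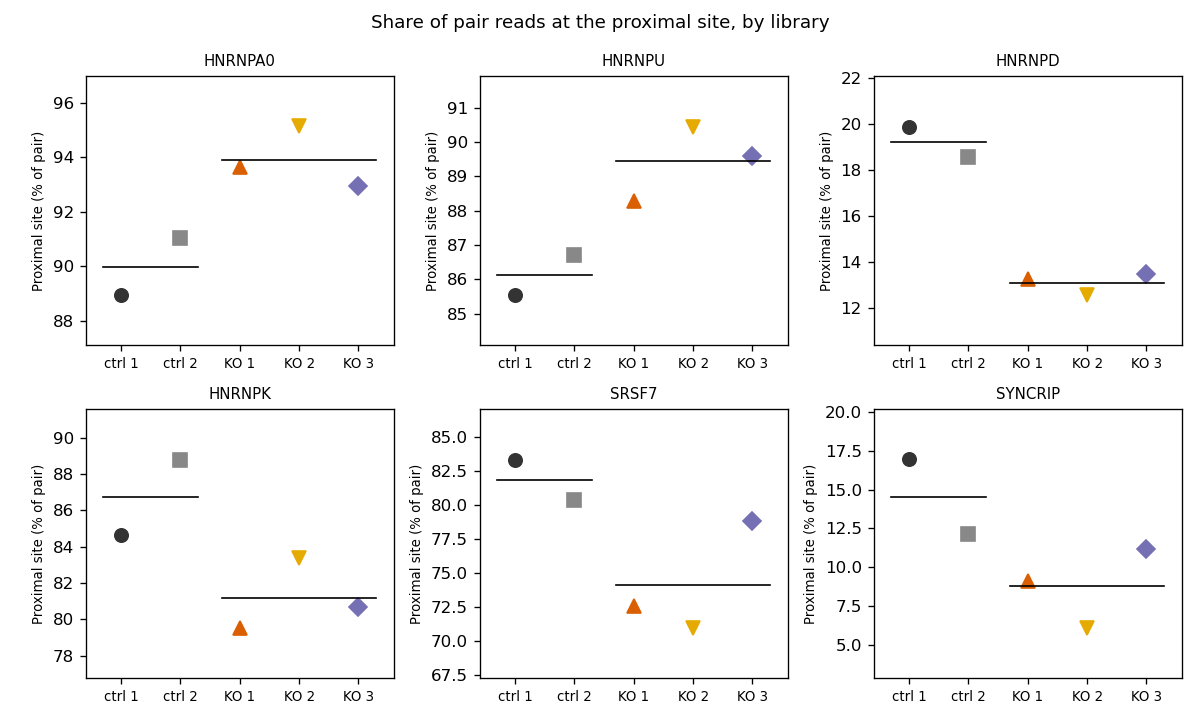
Share of the reads of each pair at the proximal 3' UTR site (y axis, percent, with a separate scale per gene that does not start at 0) in each library, for the 6 members of smallest p; black lines are group means. All 6 genes have CFIm25 KO libraries on 1 side of both controls, above them in HNRNPA0 and HNRNPU and below them in HNRNPD, HNRNPK, SRSF7 and SYNCRIP.

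HNRNPU had a shift in the same direction. Its proximal site at position 244853659 took 85.5% and 86.7% of the pair in control and 88.3%, 90.5% and 89.6% in CFIm25 KO (shift 0.45, SE 0.160, edgeR adjusted p = 0.209). The sites lie 13018 bases apart, the widest pair among the members. Sites annotated as exon lie between them, and the distal site lies past the end of HNRNPU in RefSeq. The proximal site itself differed by 0.02 (SE 0.119, edgeR adjusted p = 0.989). The 3' UTR site at position 244854412, given above as lower in every CFIm25 KO library, lies 753 bases further upstream and is not in the pair. HNRNPF, with sites 169 bases apart, had 42.7% and 39.8% in control and 51.5%, 50.1% and 52.6% in CFIm25 KO (shift 0.59, SE 0.228, edgeR adjusted p = 0.251). HNRNPU and HNRNPF did not pass, although the proximal shares of their groups did not overlap. Another 3' UTR site of HNRNPF, at position 43386493, lies upstream of both sites of the pair and held 692 reads. It was lower in every clone, at 25.7 and 28.8 CPM in control and 22.4, 19.4 and 18.1 CPM in CFIm25 KO. Its difference was -0.45 (SE 0.184, edgeR adjusted p = 0.566). The shift with that site in the pair was not tested.

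Other members had the opposite sign, with less of the proximal site in every CFIm25 KO library. HNRNPD had 19.9% and 18.5% in control and 13.2%, 12.6% and 13.5% in CFIm25 KO (shift -0.66, SE 0.164, 95% interval -1.0 to -0.32, edgeR adjusted p = 0.065), which is the site described above. HNRNPK, with sites 746 bases apart, had 84.7% and 88.8% in control and 79.5%, 83.4% and 80.7% in CFIm25 KO (shift -0.61, SE 0.179, edgeR adjusted p = 0.111). This shift was -0.87 without control 1 and -0.35 without control 2. SYNCRIP, a relative of HNRNPR that acts in mRNA transport and translation, had 16.9% and 12.2% in control and 9.13%, 6.09% and 11.2% in CFIm25 KO (shift -0.84, SE 0.252, edgeR adjusted p = 0.142). Without control 1 the shift was -0.56. The controls of SYNCRIP differed from each other by more than control 2 differed from CFIm25 KO 3. Another 3' UTR site of SYNCRIP, at position 85611321, held 865 reads, against 861 at the proximal site used. It was at 31.5 and 27.3 CPM in control and 24.4, 24.9 and 35.6 CPM in CFIm25 KO (difference -0.06, SE 0.199). The shift with that site in the pair was not tested.

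The SR genes with the smallest p had the same sign. SRSF7, with sites 1293 bases apart, had 83.4% and 80.4% in control and 72.6%, 71% and 78.8% in CFIm25 KO (shift -0.66, SE 0.204, edgeR adjusted p = 0.131). SRSF6 had 7.25% and 7.43% in control and 5.39%, 4.02% and 4.67% in CFIm25 KO (shift -0.70, SE 0.261, edgeR adjusted p = 0.241). SRSF3, which like SRSF7 is known to bear on poly(A) site choice, had 83.1% and 81.6% in control and 76.3%, 76.6% and 78.2% in CFIm25 KO (shift -0.48, SE 0.200, edgeR adjusted p = 0.304). SRSF11, also called p54, went the other way, with 87.2% and 89.9% in control and 91.7%, 94.6% and 90.2% in CFIm25 KO (shift 0.62, SE 0.289, edgeR adjusted p = 0.374), and the shift was 0.38 without CFIm25 KO 2. HNRNPA3 was the other pair with an unadjusted p under 0.05. It had 75.8% and 71.5% in control and 69.6%, 65.1% and 69.9% in CFIm25 KO (shift -0.38, SE 0.186, edgeR adjusted p = 0.392). None of these passed. The 12 pairs with an unadjusted p of 0.05 or above had shifts between -0.75 and 0.47 (edgeR adjusted p from 0.489 to 0.994). Without CFIm25 KO 3, HNRNPA0, HNRNPD, SRSF7 and SYNCRIP were called (edgeR adjusted p = 0.00244, 0.022, 0.0116 and 0.0116), 1 above and 3 below 0, and the count over all genes was 67 in place of 16. With at least 10 reads asked of both sites in every library, those 4 and HNRNPK were called, and 80 genes of 2457 tested.

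**Figure D4:**
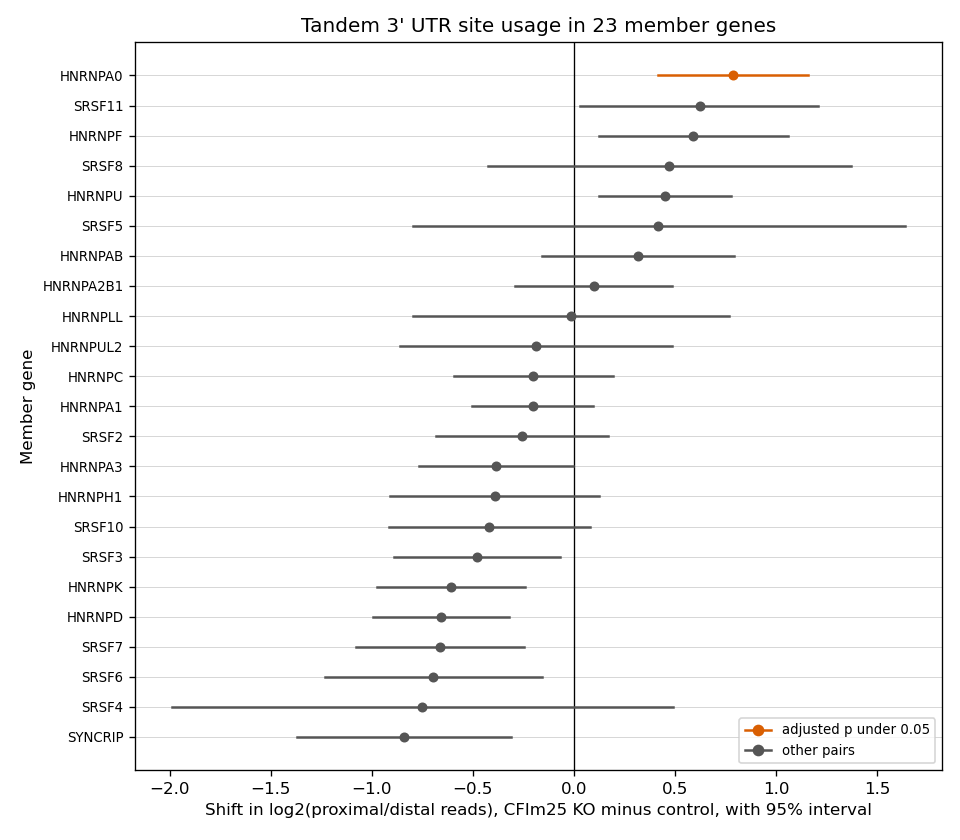
Shift in log2(proximal/distal reads) between CFIm25 KO and control for the 23 members with 2 tested 3' UTR sites, with 95% intervals; the orange point passed the threshold. Of the 23 shifts, 15 lie below 0 and 8 above, and HNRNPA0 at 0.79 is the 1 called.

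The fourth comparison set intronic against 3' UTR reads. The intronic share of a single gene is given as a percentage of its intronic plus 3' UTR reads, and that of a set of genes as a percentage of all their reads. Reads at intronic sites come from transcripts that end before the last exon, or from sites that the annotation places in an intron of a longer transcript. Of 7 members with both classes, 6 were tested and none passed, as none of the 1000 genes tested did (0%). At an unadjusted p under 0.05 there were 2 members, HNRNPA2B1 and SYNCRIP, against 9.4% of all genes tested. In all reads assigned to genes, the intronic share was 2.67% and 2.60% in control and 2.63%, 2.52% and 2.62% in CFIm25 KO (exact two-sided permutation p = 0.6, with 0.1 the smallest the 10 splits allow). In the reads of HNRNP genes and SYNCRIP it was 0.231% and 0.280% in control and 0.342%, 0.360% and 0.413% in CFIm25 KO, and in those of SRSF genes 3.23% and 2.89% against 2.80%, 3.22% and 2.98%. The higher share in CFIm25 KO in the first of these was not seen without HNRNPA2B1. With that gene left out, a choice made after the values were seen, the share in HNRNP genes and SYNCRIP was 0.08% and 0.104% in control and 0.0777%, 0.0937% and 0.073% in CFIm25 KO, with overlap.

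HNRNPA2B1, which encodes an hnRNP that sorts RNAs and reads modified adenosines, had the intronic share of smallest p. It was 3.42% and 4.42% in control and 5.57%, 7.05% and 9.10% in CFIm25 KO, above both controls in every clone, with a shift of 0.91 (SE 0.332, 95% interval 0.19 to 1.63, edgeR adjusted p = 0.393). Of its 5 intronic sites, 4 lie downstream of every 3' UTR site. The strongest, at position 26184060 of chromosome 7, lies 5867 bases past the end of the gene in RefSeq and inside the span of NFE2L3. It was at 6.0 and 8.89 CPM in control and at 12.2, 17.3 and 20.6 CPM in CFIm25 KO (difference 1.16, SE 0.284, edgeR adjusted p = 0.218). The 1 intronic site upstream of the 3' UTR, at position 26193461, was at 0.563 and 1.74 CPM in control and at 3.31, 2.38 and 2.89 CPM in CFIm25 KO (difference 1.31, SE 0.538, edgeR adjusted p = 0.566). With sites such as this alone, a choice made after the values were seen, the shift was 1.42 (edgeR adjusted p = 0.413).

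SRSF10, which encodes an SR protein that represses splicing when dephosphorylated, had the largest intronic share. Its intronic site at position 23969082 of chromosome 1 lies between its 3' UTR sites and held 1633 reads over the 5 libraries. This was close to the 1626 reads of the 3' UTR site at position 23966448, which was the stronger one in CFIm25 KO 1 and CFIm25 KO 3. Intronic reads were 38.8% and 37.7% in control and 38.8%, 43.2% and 37.4% in CFIm25 KO, with overlap (shift 0.10, SE 0.274, 95% interval -0.50 to 0.69). SRSF11 had 22.2% and 17.6% in control and 13.9%, 17.7% and 16% in CFIm25 KO (shift -0.40, SE 0.298, edgeR adjusted p = 0.679; -0.19 without control 1 and -0.61 without control 2). SYNCRIP had 0.722% and 1.04% in control and 0.353%, 0.389% and 0.524% in CFIm25 KO, from 9 to 18 reads a library (shift -1.07, SE 0.427, edgeR adjusted p = 0.459). SRSF3 had an intronic site whose control libraries had 3 and 4 reads, against 10, 9 and 13 for CFIm25 KO, too few for the test.

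**Figure D5:**
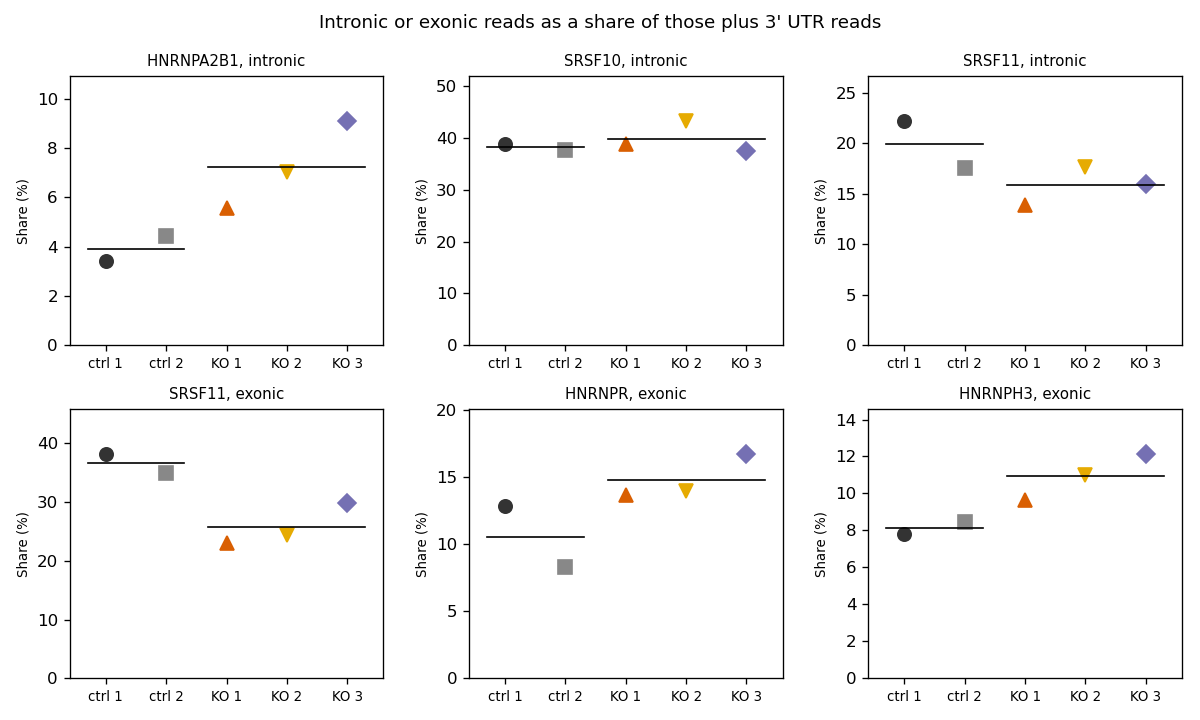
Intronic or exonic reads as a percentage of these plus the 3' UTR reads of the gene (y axis, percent, from 0, a separate scale per panel) in each library for 5 members; black lines are group means. HNRNPA2B1 has all CFIm25 KO clones (5.57% to 9.10%) above the controls, SRSF10 lies between 37.4% and 43.2% in all libraries, and the exonic share of SRSF11 is lower in all CFIm25 KO clones.

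The fifth comparison set exonic against 3' UTR reads. The exonic share of a gene is given as a percentage of its exonic plus 3' UTR reads, with intronic reads left out. None of the 13 members tested passed, as none of 814 genes did (0%). At an unadjusted p under 0.05 there was 1 member, SRSF11, against 7% of all genes. Of all reads assigned to genes, exonic sites held 10.15% and 10.19% in control and 8.91%, 10.05% and 12.38% in CFIm25 KO. CFIm25 KO 3 was thus the highest library, and the part of this in the member shares was not tested. SRSF11 had 38.2% and 34.9% at its 3 exonic sites in control and 23.1%, 24.4% and 29.8% in CFIm25 KO, lower in every clone (shift -0.74, SE 0.319, 95% interval -1.37 to -0.11, edgeR adjusted p = 0.485). The strongest of these, at position 70244811 of chromosome 1 and upstream of the main site, was at 24 and 26.3 CPM in control and 13.2, 13 and 19.7 CPM in CFIm25 KO (difference -0.73, SE 0.219, edgeR adjusted p = 0.37, and 0.0269 without CFIm25 KO 3). The sum of all sites of SRSF11 differed little, at 164 and 163 CPM in control and 139, 161 and 162 CPM in CFIm25 KO. The sign of that difference depended on the sites counted, at -0.09 over all sites and 0.16 over the 3' UTR sites alone.

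Other exonic shares were higher in CFIm25 KO without passing. HNRNPR had 12.8% and 8.28% in control and 13.7%, 13.9% and 16.7% in CFIm25 KO (shift 0.55, SE 0.368, edgeR adjusted p = 0.711), but the shift was 0.93 without control 1 and 0.23 without control 2. The sum of all sites of HNRNPR had a difference of -0.04 (SE 0.138, edgeR adjusted p = 0.975). The site of HNRNPH3 annotated as exon lies 921 bases downstream of its main site, at the end of the gene in RefSeq. By position it is thus a distal end of the gene, downstream of every 3' UTR site. Its share was 7.81% and 8.47% in control and 9.66%, 11% and 12.1% in CFIm25 KO (shift 0.46, SE 0.350, edgeR adjusted p = 0.762). The level of this site was 54.6 and 51.2 CPM in control and 58.9, 55.9 and 47.3 CPM in CFIm25 KO, with overlap (difference 0.03, SE 0.157). The main site was at 643 and 551 CPM in control and 549, 451 and 342 CPM in CFIm25 KO (difference -0.42, SE 0.179, edgeR adjusted p = 0.591). In HNRNPA1 the exonic share was 3.88% and 3.18% in control and 2.02%, 1.95% and 3.27% in CFIm25 KO, with overlap (shift -0.60, SE 0.390). The pseudogene HNRNPCP2 was at 2.3 and 1.9 CPM in control and 1.7, 2.6 and 3.8 CPM in CFIm25 KO (difference 0.33, SE 0.502, edgeR adjusted p = 0.937).

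Other splicing regulators gave no call at the gene level either. Of 8 kinases and phosphatases of SR proteins with enough reads, 7 were above 0 and 1 below. CLK1, a kinase that releases SR proteins from nuclear speckles, was at 4.38 and 5.34 CPM in control and 6.32, 9.51 and 9.25 CPM in CFIm25 KO (difference 0.77, SE 0.314, edgeR adjusted p = 0.649), and CLK3 had the opposite sign (difference -0.57, adjusted p = 0.717). Of 30 hnRNP-like proteins under other names, 22 were above 0 and 8 below (median 0.12), with PTBP1, the polypyrimidine tract repressor, at 0.29 (SE 0.134, edgeR adjusted p = 0.696) and PTBP2 at 0.37 (adjusted p = 0.747). Of 15 factors of splice site recognition, RBM17 had the smallest p, at 96.3 and 88.8 CPM in control and 73.6, 66.4 and 64.1 CPM in CFIm25 KO (difference -0.44, SE 0.131, edgeR adjusted p = 0.504), and SF3A3 was at -0.30 (adjusted p = 0.722). The 19 SR-related coactivators and import factors had a median of 0.02, with TNPO3, the importin of SR proteins, at -0.19 and SRRM2 at 0.24. The 9 factors of nonsense-mediated decay had a median of 0.05, with SMG9 at 0.34.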

How the data were processed

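Per the labels and the study's methods, poly(A)+ RNA of H9 clones was sequenced with the QuantSeq Rev kit on NovaSeq. The authors mapped the reads with Bowtie2 (version not given in the sources used here), took read ends as poly(A) junctions, filtered out internal priming and grouped nearby ends as sites. Each read was placed once, so that reads shared with pseudogenes (RefSeq names 75 after HNRNPA1 and 17 after HNRNPA3) could be misplaced. The authors deposited raw counts per site and RPM values per library. The RPM values, counts divided by a library total, served only to choose the 2 strongest sites of a gene. A fold change and a p-value per site, from the authors' own comparison, were not used. Sites summed to at least 5 RPM. The labels name hg19, but 97.52% of the 161 member sites fell inside or up to 5000 bp from the RefSeq gene in GRCh38 and 0% in GRCh37, so positions are given as GRCh38.

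Counts were tested over the whole table with edgeR 4.0.16 in R 4.3.3 (two-sided robust quasi-likelihood F test with TMM scaling and filterByExpr, Benjamini-Hochberg adjustment, threshold 0.05). Usage was tested as the interaction of site class and group with 1 term per library, and each site of a tandem pair held at least 5% of it. The code was tested on simulated data. Libraries of 1 group differed by more than sampling noise (chi-square per degree of freedom at least 3.36), so none was a duplicate. Intervals of 95% are on the log2 scale. Reads carry no molecular identifiers. The members, lists and the rule for naming genes were chosen with earlier results of these data known. The rule names members called in any test, the 8 of smallest gene-level p, the 6 of highest CPM, those with at least 10% intronic or exonic reads, the 6 tandem pairs of smallest p and 2 genes of each list, of which 1 is not reported here. Other genes were named after their values were seen. Alternatives were DESeq2 1.42.0 size factors and its test, library totals, no count filter, 3' UTR sites alone, diffSpliceDGE, a minimum of 10 reads, a pair share of 10%, a replicate block and leaving out each library.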

Additional observations from a re-analysis of the deposited data

How the results depend on the processing

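At the gene level no member was called under any alternative but the replicate block (1, HNRNPA1 at 0.32), and the count over all genes (7) was 11 with library totals, 26 in DESeq2, and 2 to 123 when 1 library was left out. No member site was called (25 over all sites) except 1 in DESeq2 (61 over all) and between 0 and 3 with 1 library left out (29 to 329 over all). The 1 tandem call (16 over all genes) became 0 in diffSpliceDGE (5 over all), 5 with at least 10 reads (80), 0 to 4 with 1 library left out (3 to 67), and with a pair share of 10% it was HNRNPD (-0.66, edgeR adjusted p = 0.0413; 27 over all), since the HNRNPA0 pair was then not tested. Intronic and exonic usage gave no member in any alternative. Over all genes the intronic count was 6 in diffSpliceDGE, 2 with at least 10 reads and 0 to 13 with 1 library left out, and the exonic count was 2 in diffSpliceDGE and 0 to 4 with 1 library left out. The difference in the exonic share of all genic reads was 0.276 percentage points (-0.689 to 1.04 with 1 library left out). Gene-level signs turned in SRSF1 (-0.063 to 0.161 with 1 library left out), HNRNPR (-0.126 to 0.039), SRSF10 (-0.076 to 0.044; intronic shift -0.0069 to 0.17) and SRSF7 (-0.27 to 0.20), and in SRSF11 with 3' UTR sites alone (0.16). The cause was not tested.

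Replicate numbers were taken only as names, since the labels name no shared batch. Same-numbered libraries deviated with correlations of 0.0643 and 0.0397, and the crossed pairs with -0.0643 and -0.0397. With 2 controls the crossed values mirror the others, so these correlations do not settle whether libraries were paired. With a replicate block, in which CFIm25 KO 3 has no partner, the calls were 1 member gene (634 over all), 8 member sites (624), 6 tandem pairs (164), and no intronic (17) or exonic pair (0). Under that block SRSF1 was at -0.059, HNRNPR at 0.019, SRSF10 at 0.0050 and SRSF7 at 0.19. Depth limits the low members: SRSF12 and HNRNPCP2 stood at 1 to 4 CPM, and the median site held 21 to 31 reads per library.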
